A study of Mus musculus with 5 samples.

Results

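The genes described here encode the 3 TGF-beta ligands (Tgfb1, Tgfb2 and Tgfb3), 3 members of the latent TGF-beta binding protein family (Ltbp1, Ltbp2 and Ltbp3), the receptor chains Tgfbr1, Tgfbr2 and Tgfbr3, and Tgfbi, a matrix protein named for its induction by TGF-beta. These 10 genes were chosen by name, with no threshold on their values, from the 29818 gene symbols of the count matrices, and each of them was present there. Single cells were isolated from the femoral and tibial growth plates of 5 mouse pups of 1 litter, labelled C57BL/6J, and sequenced as 1 BD Rhapsody library per pup. Pups 1 and 2 were labelled wild type (WT) and pups 3, 4 and 5 mutant, that is, carrying a conditional knock-in allele of the calcium channel gene Trpv4 (p.R594H) that Col2a1-Cre switches on in cells with a history of Col2a1 expression, chiefly chondrocytes. The knock-in strain was made on C57BL/6J, while the Cre transgene came from a mixed B6;SJL line, so the litter may carry some SJL genome. The study asked which transcripts the activated channel alters in the growth plate. The pups are given as postnatal day 5 in the sample labels and as day 3 in the series text. The sources used here do not state whether the WT littermates carried Cre or the unrecombined allele.

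TGF-beta ligands are secreted in a latent form, in which the ligand is held by its own propeptide. That complex is tethered to the matrix by latent TGF-beta binding proteins, the products of Ltbp1 and Ltbp3 among them, and must be activated, for example by integrins. Active ligand binds the type II receptor (Tgfbr2), which phosphorylates the type I receptor (Tgfbr1), and the signal passes to Smad2 and Smad3. Betaglycan, the product of Tgfbr3, presents ligand to these receptors, TGF-beta 2 in particular. In cartilage the pathway is known for restraining hypertrophic differentiation and for its part in joint and tendon formation.

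The files held 14003 to 19589 cells per pup, and 13814 to 19133 per pup, 82516 in all, passed the limits of at least 200 and at most 6000 genes and at most 10% mitochondrial UMIs (unique molecular identifiers, which count captured molecules). Median depth was 9261 and 8521 UMIs per cell in the WT pups and 6000 to 7016 in the mutant pups, without overlap. Xist was detected in 89.8% and 88.4% of the cells of mutant pups 3 and 4 and in 0.109% to 0.174% of those of the other pups, and the Y-linked gene Ddx3y in 66.3% to 70.1% of the cells of pups 1, 2 and 5. Both WT pups were thus of one sex, and a comparison by genotype is partly a comparison by sex. UMIs of Trpv4 cannot show a point mutation, and their all-cell levels overlapped between the genotypes. Cells were clustered without the 10 genes, and clusters were named from marker genes. Although the cells are labelled chondrocytes and tendon and ligament were removed at dissection, 40782 cells fell in the 4 chondrocyte classes, and the other named classes held tendon and ligament, perichondrial, synovial, vascular and blood cells. Cells in 8 clusters (15652 cells) stayed unnamed. Own markers were highest in their class for 6 of 8 markers of hypertrophic, 7 of 8 of tendon and ligament and 6 of 10 of perichondrial cells. This held for only 4 of 9 of resting, 4 of 11 of proliferating and prehypertrophic and 3 of 10 of articular chondrocytes. Ucma for resting and Prg4 and Cilp for articular cells were among them. These chondrocyte classes are thus set apart by fewer of their markers.

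Levels below are CPM, the UMIs of a gene per 1e6 UMIs of the cells of a class summed within a pup, and they are given as mean ± SD over the 5 pups. They are compared between classes and not between genes. Because the classes were made from the same cells, differences between classes are descriptions with no test. Col2a1, the cartilage collagen gene, reached 6306 to 12846 CPM in macrophages and 11228 to 25161 CPM in granulocytes, against 89492 to 121080 CPM in resting chondrocytes. Such UMIs can come from RNA released by other cells (free RNA) or from cells captured together (doublets). Their source was not tested. A chondrocyte transcript at a low level in a blood class therefore cannot be read as expression by those cells. Unnamed clusters led by Grem1, Lgr6 and Nos2 (3072 cells), by Notum, Bmp7 and Arsi (3281) and by Top2a (2509) were also rich in Col2a1. They held 101729 to 132107, 67405 to 100517 and 67645 to 88851 CPM, so the 4 chondrocyte classes do not hold all Col2a1-rich cells. Those led by Mt2 and by Ostn were lower, at 3132 to 14856 and 1883 to 7800 CPM.

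Per GENCODE M21 on the mouse build GRCm38, the ligand genes are at chr7:25687002-25705077 (Tgfb1, plus strand), chr1:186622792-186705989 (Tgfb2, minus strand) and chr12:86056745-86079041 (Tgfb3, minus strand). The latency protein genes are at chr17:75005568-75392512 (Ltbp1, plus strand), chr12:84783212-84876532 (Ltbp2, minus strand) and chr19:5740904-5758532 (Ltbp3, plus strand). The receptor genes are at chr4:47353222-47414931 (Tgfbr1, plus strand), chr9:116084293-116175360 (Tgfbr2, minus strand) and chr5:107106570-107289629 (Tgfbr3, minus strand), and Tgfbi is at chr13:56609523-56639562 (plus strand).

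Promoter sequence was matched for 8 of the 10 genes by symbol (RefSeq, GRCm38.p6). The 120 bases upstream of the start are printed for Tgfb1 and Tgfb2, the pair of ligands with the lowest resemblance across the 13 classes, and for both RefSeq starts of Ltbp1, the member with the widest range over classes. The stretches lie at chr7:25686882-25687001 (Tgfb1, plus strand), chr1:186705990-186706109 (Tgfb2, minus strand), chr17:75005409-75005528 (Ltbp1, first start, plus strand) and chr17:75178661-75178780 (Ltbp1, second start, plus strand). Capitals mark letters of the motifs searched on both strands.
Tgfb1: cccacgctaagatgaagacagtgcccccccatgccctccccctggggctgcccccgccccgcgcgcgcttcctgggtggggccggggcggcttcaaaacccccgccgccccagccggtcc
Tgfb2: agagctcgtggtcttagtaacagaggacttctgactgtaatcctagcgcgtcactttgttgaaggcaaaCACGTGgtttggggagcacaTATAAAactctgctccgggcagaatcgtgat
Ltbp1 first start: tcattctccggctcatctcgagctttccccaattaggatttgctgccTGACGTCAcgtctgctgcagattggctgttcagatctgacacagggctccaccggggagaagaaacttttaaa
Ltbp1 second start: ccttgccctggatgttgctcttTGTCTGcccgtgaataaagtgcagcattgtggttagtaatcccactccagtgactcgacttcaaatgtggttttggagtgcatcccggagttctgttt
The motifs were the TATA box (TATAAA), the cAMP response element (TGACGTCA) and the E-box (CACGTG). The AP-1 site (TGANTCA) was searched as well, as were the letters that Smad proteins bind (CAGACA), which on the opposite strand read TGTCTG. The motifs do not overlap in these stretches. In the Tgfb2 stretch, a TATA box lay at -31 and an E-box at -51 from the start, and the Smad-binding letters lay upstream of it at -204. The first Ltbp1 start had the cAMP response element at -73, and the second had the Smad-binding letters, on the opposite strand, at -98 and, upstream of the printed bases, at -149. The Tgfb1 stretch held none of these letters. Over the 32851 mouse promoter windows of 250 bases, TATAAA was present in 12.4%, CACGTG in 6.02%, CAGACA in 17.1%, TGANTCA in 6.75% and TGACGTCA in 1.55%. Such matches describe the letters and do not show binding.

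**Figure D1:**
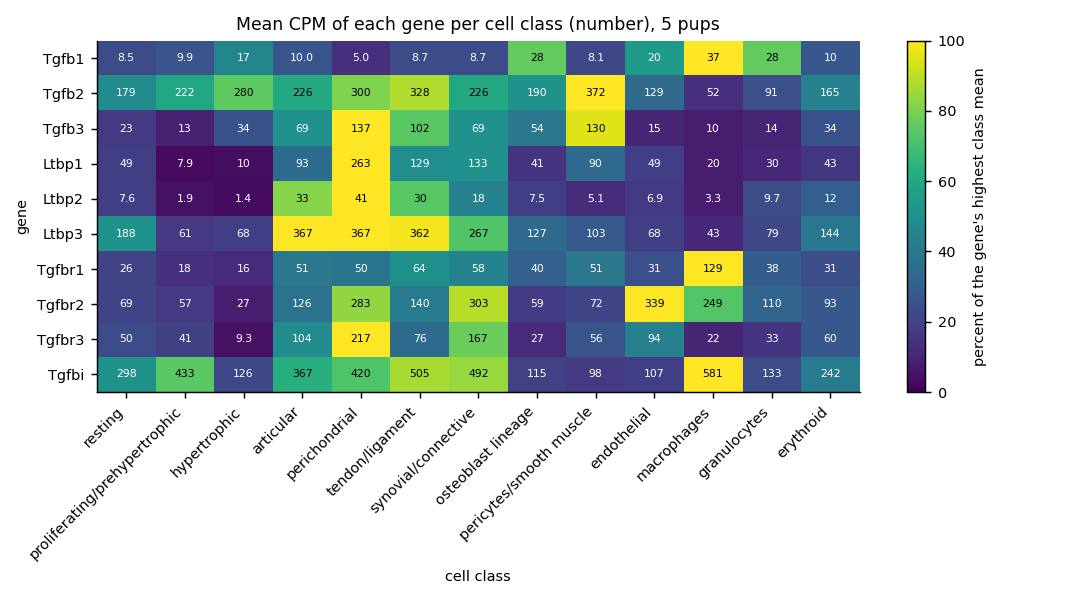
Level of each of the 10 genes (rows) in the 13 cell classes (columns), as the mean CPM over 5 pups (printed number) and as a percentage of the gene's highest class (colour). Tgfb1 and Tgfbr1 were highest in macrophages, Tgfbr2 in endothelial cells and Ltbp1 in perichondrial cells, and the lowest Ltbp1 level was in proliferating and prehypertrophic chondrocytes.

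Among the ligands, Tgfb2 had UMIs in each of the 13 classes, and its class averages were closer among chondrocytes than its cluster values. It averaged 179 ± 35.2 CPM in resting, 222 ± 27.2 in proliferating and prehypertrophic, and 280 ± 43.0 in hypertrophic chondrocytes (SD, n = 5). Within classes it spread more, from 83.3 to 432 CPM over the 8 resting clusters and from 128 to 306 CPM over the 3 proliferating and prehypertrophic clusters. In articular chondrocytes the level was 0.909-fold that of proliferating and prehypertrophic cells in the median pup. In pericytes and smooth muscle cells, the class with the highest mean, Tgfb2 was at 375, 475, 356, 320 and 336 CPM in pups 1 to 5. This class was highest in 2 of 5 pups, and osteoblast lineage cells were highest in 5 of 6 other clusterings. In the clustering used here osteoblast lineage cells ranged from 84.3 to 399 CPM over the pups and joined a cluster of 275 cells at 87.7 CPM with one of 73 cells at 399 CPM. Tendon and ligament cells followed with 282, 299, 358, 362 and 337 CPM, which overlaps the pericyte range. Macrophages were lowest, with 58.4, 37.9, 47.3, 67.9 and 49.9 CPM, a range that overlapped that of granulocytes (44.8 to 121 CPM). By numbers of molecules, 18.7% of all Tgfb2 UMIs came from tendon and ligament cells, 18.1% from resting and 16.2% from proliferating and prehypertrophic chondrocytes. An unnamed cluster led by Mt2, Aqp1 and Spon2 reached 498 CPM on average, more than any named class, and the cycling cluster led by Top2a held 103 CPM.

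Tgfb3 differed between articular and proliferating chondrocytes. It was at 11.3, 15.6, 14.5, 9.98 and 11.9 CPM in proliferating and prehypertrophic chondrocytes, and at 72.0, 82.8, 71.2, 57.4 and 61.1 CPM in articular chondrocytes. The ranges were far apart, and the fold between these classes within a pup was 5.31 in the median and 4.92 to 6.38 over the pups. Resting chondrocytes lay between, at 20.3 to 25.9 CPM, although their clusters ran from 14.9 to 42.4 CPM and met the proliferating and prehypertrophic ones (10.7 to 15.0 CPM). Hypertrophic chondrocytes were at 29.5, 33.2, 46.6, 24.6 and 38.4 CPM, 2.61-fold the proliferating level in the median pup (2.13 to 3.23), and overlapped the resting range. Outside cartilage, Tgfb3 was at 105, 109, 99.3, 94.9 and 101 CPM in tendon and ligament cells, 8.48-fold the proliferating level in the median pup (6.86 to 9.51). It was at 141, 119, 128, 118 and 178 CPM in perichondrial cells and from 83.9 to 201 CPM in pericytes and smooth muscle cells, so these classes overlapped. Macrophages held 7.68 to 12.9 CPM, a range that overlaps that of proliferating and prehypertrophic chondrocytes.

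Because proliferating and prehypertrophic cells were deeper (median 18298 to 25087 UMIs per cell) than macrophages (6202 to 8491), the share of cells with a Tgfb3 UMI was also taken after thinning each cell to 3000 UMIs. It was then 2.82% to 4.59% of proliferating and prehypertrophic cells, 0.885% to 2.73% of macrophages and 24.6% to 28.6% of tendon and ligament cells. Without thinning, the first 2 shares were 15.7% to 27.5% and 5.04% to 7.41%. In proliferating and prehypertrophic chondrocytes the CPM of Tgfb3 therefore overlapped the range of macrophages, with 2 of 5 pups above it, while the thinned share was above it.

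Tgfb1 had its highest mean in macrophages, where Tgfb2 and Tgfb3 had their lowest. In macrophages it was at 26.1, 40.7, 34.7, 38.7 and 47.1 CPM, and in granulocytes at 18.3, 43.1, 36.2, 8.65 and 35.5 CPM, on 1 to 43 UMIs per pup. Osteoblast lineage cells averaged 28.4 ± 9.08 CPM, on 6 to 68 UMIs per pup (SD, n = 5). The ranges of these 3 classes overlapped, and macrophages were the highest class in 3 of 5 pups. Perichondrial cells were lowest at 3.86 to 6.67 CPM, and resting chondrocytes were at 8.51 CPM on average. Each class overlapped its neighbour in the order of Tgfb1 levels, in 12 of 12 neighbouring pairs.

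The composition of the ligand pool thus changed with the class. Of the UMIs of the 3 ligands, Tgfb2 made up 90.8% on average in proliferating and prehypertrophic chondrocytes, 68.0% in perichondrial cells and 52.0% of the pool in macrophages. The share of Tgfb3 was 5.16% in proliferating and prehypertrophic chondrocytes and 30.9% in perichondrial cells. Tgfb1 supplied 37.7% of the ligand UMIs of macrophages and 1.15% of those of perichondrial cells. These shares are of captured molecules, and capture was not calibrated between the genes, so only their differences between classes are read. How much of the Tgfb2 and Tgfb3 in macrophages was free RNA was not tested, so their shares there are not read as expression by macrophages.

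**Figure D2:**
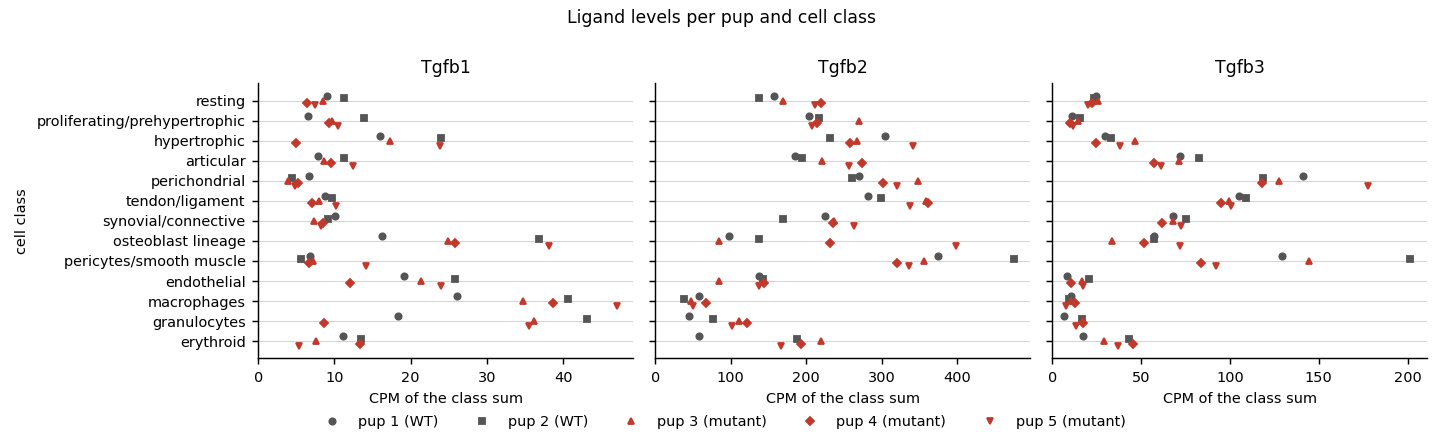
Levels of Tgfb1, Tgfb2 and Tgfb3 by pup in the cell classes (horizontal axis, CPM), with 1 point per pup, grey for WT and red for mutant. Tgfb3 points of articular chondrocytes lie between 57.4 and 82.8 CPM, above all those of proliferating and prehypertrophic chondrocytes (9.98 to 15.6 CPM).

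The latency protein genes were high where fibrous or articular cells were sampled and low in the deeper chondrocyte zones. Ltbp1 was at 221, 270, 302, 231 and 289 CPM in perichondrial cells, the highest class in 5 of 5 pups, and at 7.02, 8.68, 9.65, 6.33 and 8.04 CPM in proliferating and prehypertrophic chondrocytes. The fold within a pup was 31.4 in the median (31.1 to 36.5). Synovial and connective tissue fibroblasts (133 ± 21.3 CPM), tendon and ligament cells (129 ± 10.6) and articular chondrocytes (92.8 ± 8.99) came between (SD, n = 5). Resting chondrocytes held 39.5 to 54.8 CPM, 5.99-fold the proliferating level in the median pup. The 8 resting clusters ran from 10.8 to 77.3 CPM. The lowest of them, whose marker score was slightly higher for proliferating and prehypertrophic chondrocytes than for resting ones (1.286 against 1.283), lay just above the 5.66 to 9.83 CPM of the 3 proliferating and prehypertrophic clusters. In hypertrophic chondrocytes, Ltbp1 was at 10.1, 14.0, 5.42, 9.01 and 11.9 CPM, overlapping the proliferating class. Macrophages averaged 20.2 CPM, above both. After thinning to 3000 UMIs, 1.53% to 3.00% of proliferating and prehypertrophic cells, 3.36% to 7.24% of macrophages and 35.2% to 51.7% of perichondrial cells had an Ltbp1 UMI. The proliferating share thus lay below that of macrophages. Whether the Ltbp1 UMIs of proliferating and prehypertrophic cells were their own or free RNA was not tested, so the folds over this class are read as lower bounds.

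Ltbp2, whose product is matrix-bound and is not known to bind latent TGF-beta itself, followed a like order over the classes. Its values were 43.7, 23.8, 40.9, 45.3 and 50.5 CPM in perichondrial cells and 37.6, 33.7, 32.3, 30.6 and 32.9 CPM in articular chondrocytes, and these ranges overlapped. By cluster, Ltbp2 was at 14.7 and 92.4 CPM in the 2 perichondrial clusters and at 21.3 to 52.2 CPM in the 5 articular ones. In proliferating and prehypertrophic chondrocytes it was at 1.59 to 2.23 CPM, and the articular level was 18.7-fold higher in the median pup (14.4 to 19.2). After thinning, 0.322% to 0.633% of those cells and 0% to 2.27% of macrophages had an Ltbp2 UMI, so this fold too is read as a lower bound. Hypertrophic chondrocytes had 0 to 5 Ltbp2 UMIs per pup, 12 in all, which is too few for a level.

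Ltbp3 was less restricted. It was at 351, 393, 419, 360 and 314 CPM in articular chondrocytes, at 379, 343, 370, 391 and 352 CPM in perichondrial cells and at 349, 372, 399, 369 and 318 CPM in tendon and ligament cells. These classes could not be ordered, since their ranges overlapped. Resting chondrocytes followed at 161 to 220 CPM, and proliferating and prehypertrophic chondrocytes held 65.3, 63.8, 58.3, 57.2 and 60.8 CPM. The articular level was 6.17-fold higher than that in the median pup (5.17 to 7.18). Macrophages were lowest at 42.6 ± 3.72 CPM (SD, n = 5). Of the UMIs of the 3 latency genes, Ltbp3 made up 86.1% in proliferating and prehypertrophic chondrocytes and 54.8% in perichondrial cells, and Ltbp1 11.2% and 39.1%.

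Hypertrophic chondrocytes, the last stage of the growth plate, were low for each receptor chain. The class had 299 cells, 29 to 105 per pup, and 408 UMIs of the 3 chains together, so counting error limits these levels. Tgfbr3 was at 8.42, 10.0, 12.6, 9.01 and 6.62 CPM there, 0.212-fold the level of proliferating and prehypertrophic chondrocytes in the median pup (0.143 to 0.338), and lower in 5 of 5 pups. After thinning, 0% to 3.70% of hypertrophic cells and 3.28% to 5.94% of macrophages had a Tgfbr3 UMI, so this fold is read as an upper bound. Tgfbr2 was at 21.9, 17.9, 26.0, 34.4 and 33.1 CPM, 0.521-fold the proliferating level (0.347 to 0.555), again lower in 5 of 5 pups. Tgfbr1 was at 15.2, 10.0, 14.4, 14.8 and 25.1 CPM and overlapped the proliferating range of 16.6 to 19.7 CPM.

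Articular chondrocytes held more of each receptor chain than proliferating and prehypertrophic chondrocytes did, in 5 of 5 pups. The fold in the median pup was 2.78 for Tgfbr1 (2.54 to 3.39), 2.36 for Tgfbr2 (1.72 to 2.95) and 2.51 for Tgfbr3 (1.97 to 3.18). Resting chondrocytes were closer to the proliferating class, with median folds of 1.40, 1.18 and 1.26, and for Tgfbr2 and Tgfbr3 they were higher in 4 of 5 pups.

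Outside cartilage the receptor chains had different highest classes. Tgfbr1 was at 100, 96.3, 126, 143 and 178 CPM in macrophages, above every pup of the other 12 classes, and the next class, tendon and ligament cells, held 60.5 to 69.3 CPM. In 55 mast cells, too few for a level in each pup, Tgfbr1 was at 277 CPM over all pups together, on 134 UMIs. Tgfbr2 was at 300, 335, 291, 345 and 425 CPM in endothelial cells and at 234, 296, 373, 310 and 300 CPM in synovial and connective tissue fibroblasts, and these ranges overlapped. Perichondrial cells (283 ± 27.6 CPM) and macrophages (249 ± 38.9 CPM) followed (SD, n = 5). Tgfbr3 was at 186, 319, 222, 203 and 152 CPM in perichondrial cells and at 132 to 194 CPM in synovial and connective tissue fibroblasts, again with overlap. Within classes it spread more, with the 2 perichondrial clusters at 94.5 and 300 CPM. The 5 articular clusters ran from 80.6 to 408 CPM. Macrophages had little Tgfbr3, at 10.2 to 29.0 CPM. In 106 Schwann cells, too few for a level in each pup, Tgfbr3 was at 499 CPM over all pups together, on 348 UMIs.

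**Figure D3:**
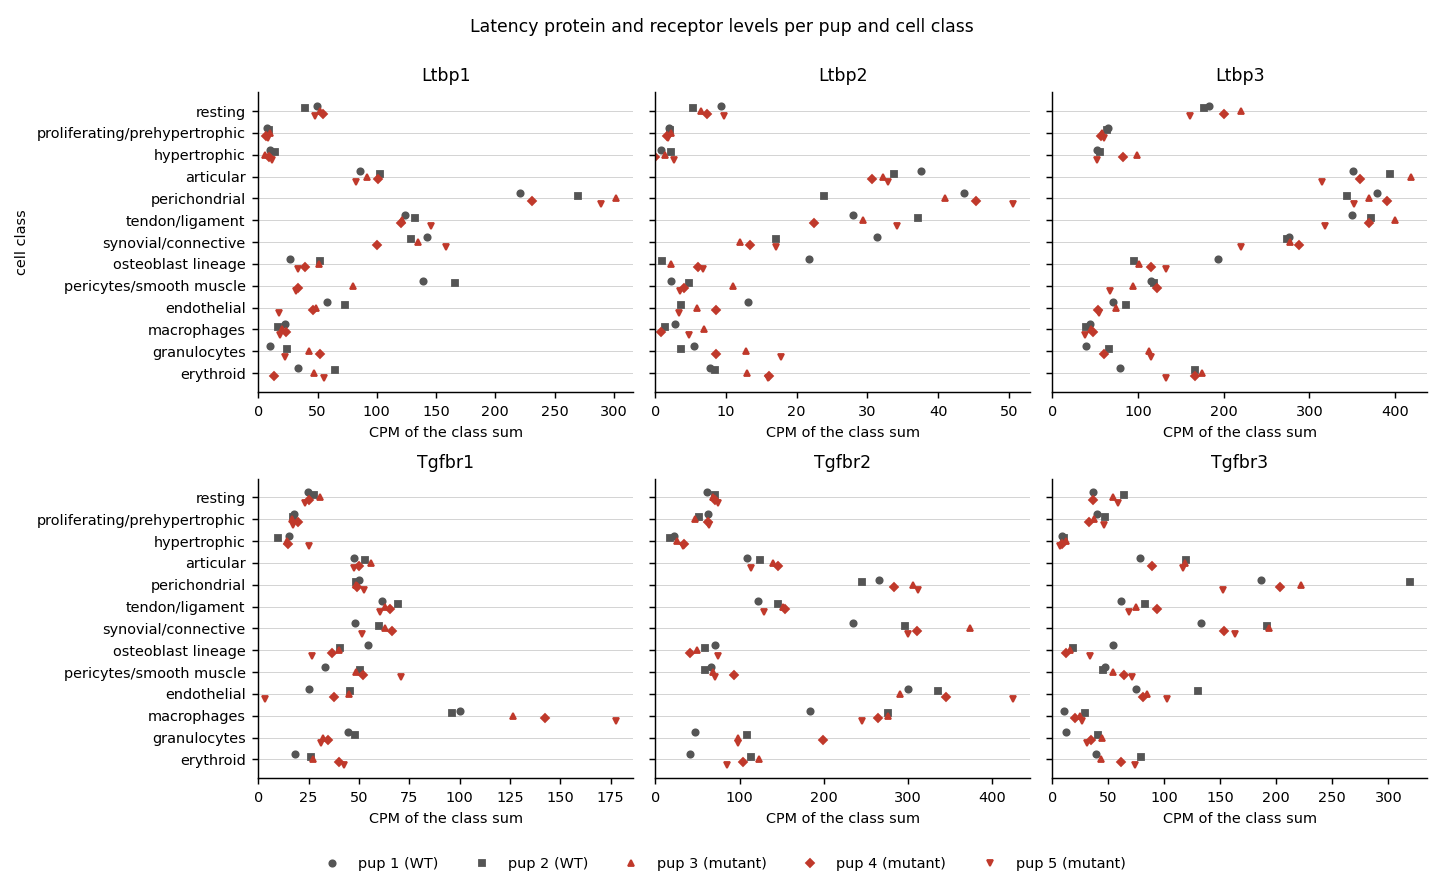
Levels of the latency protein genes and the receptor chains by pup in the cell classes (horizontal axis, CPM), with 1 point per pup, grey for WT and red for mutant. In hypertrophic chondrocytes the Tgfbr3 points lie between 6.62 and 12.6 CPM and the Tgfbr2 points between 17.9 and 34.4 CPM, below those of proliferating and prehypertrophic chondrocytes.

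Tgfbi was broadly expressed, and its order was not that of the ligands. Macrophages (597, 558, 509, 503 and 737 CPM), tendon and ligament cells (542, 605, 557, 425 and 399 CPM) and synovial and connective tissue fibroblasts (614, 475, 392.05, 488 and 492 CPM) overlapped at the top. Proliferating and prehypertrophic chondrocytes were at 500, 440, 448, 349 and 428 CPM and exceeded resting chondrocytes (214 to 390 CPM) in 5 of 5 pups. The 8 resting clusters ran from 98.2 to 741 CPM, however, and spanned the 251 to 560 CPM of the 3 proliferating and prehypertrophic clusters. From proliferating and prehypertrophic to hypertrophic chondrocytes the level was 0.287-fold in the median pup (0.261 to 0.353), with hypertrophic values of 131, 121, 129, 123 and 128 CPM. An unnamed cluster of 3281 cells led by Notum, Bmp7 and Arsi had 1139 CPM on average, with pups from 804 to 1610 CPM, above the highest pup of each named class.

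The resemblance between genes was measured as Pearson's r of log2(CPM + 5) over the 13 classes, among 9574 genes of at least 20 CPM in some class. The points share libraries and may share free RNA, so r is a description. Ltbp2 and Ltbp3 were the most alike pair of members (r = 0.91), and Ltbp1 resembled Ltbp2 (0.87), Tgfbr3 (0.85) and Ltbp3 (0.84). Tgfb3 resembled Tgfb2 and Ltbp1 (0.79 each), and Tgfb1 ran against Tgfb2 (r = -0.78). Among all genes, the 3 closest to Tgfb1 were Skap2 (0.89), Prex1 (0.89) and Ube2j2 (0.88), to Tgfb2 B4galt2 (0.95), Rhobtb3 (0.95) and Kctd15 (0.92), and to Tgfb3 Bcl9l (0.93), Pygo1 (0.91) and Col6a3 (0.91). For the latency genes these were Nfia (0.96), C1qtnf2 (0.96) and Gulp1 (0.95) for Ltbp1, Col8a2 (0.97), Tbx4 (0.96) and Abi3bp (0.96) for Ltbp2, and Bgn (0.96), Boc (0.96) and Igsf10 (0.96) for Ltbp3. For the receptors they were Sirt2 (0.93), Slc17a5 (0.92) and Itgav (0.91) for Tgfbr1, Mettl23 (0.93), Nmt2 (0.91) and Rps6ka3 (0.91) for Tgfbr2, and Cachd1 (0.93), Fut11 (0.93) and Zfp423 (0.92) for Tgfbr3. The nearest genes to Tgfbi were P2ry10b (0.88), Dvl2 (0.85) and Clcn5 (0.82). Bgn (biglycan) and Itgav (an integrin chain that activates latent TGF-beta) belong to the pathway lists below.

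Of 59 further pathway genes in 4 lists, the 2 with the widest range over the classes were taken from each. In the latency and activation list these were the microfibril gene Fbn2 (729 CPM in perichondrial and 7.18 CPM in hypertrophic cells) and the latency gene Ltbp4 (398 CPM in endothelial and 2.06 CPM in hypertrophic cells). Among the binding proteins, Aspn, a small matrix proteoglycan that binds TGF-beta, was at 2123 CPM in perichondrial cells, and the co-receptor gene Eng at 254 CPM in endothelial cells. Among the Smads and regulators, the repressor genes Tgif1 (288 CPM in macrophages) and Ski (409 CPM in synovial and connective tissue fibroblasts) ranged most. The response list was led by the smooth muscle gene Tagln (1829 CPM in pericytes and smooth muscle cells) and the lubricin gene Prg4 (13233 CPM in articular chondrocytes), which are also markers of those cells. For 7 of these 8 genes the lowest class was hypertrophic chondrocytes.

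The genotypes were compared on counts summed per pup with edgeR's quasi-likelihood test, adjusted by the Benjamini-Hochberg method over all genes tested. The comparison was made in all cells together and in 12 sets with at least 100 cells in every pup, namely 7 named classes and 5 unnamed clusters. Values from here on are CPM after TMM normalization, and fold changes are log2 of mutant over WT. Exceptions are cluster levels within a class, equal-weight values, chondrocyte levels of Ccn2 and marker sums in macrophages, which are CPM without TMM. None of the 10 genes passed an adjusted p of 0.05 in any of these sets with edgeR. In the 12 sets, 0 of 119 tests of these genes passed, 21 had an unadjusted p under 0.05, 9 of them for Tgfb2, and DESeq2 called 1. Over all genes, DESeq2 called 0 to 57 per set, and 3 in the set with that call. With edgeR, 2.95% to 9.11% of all genes tested had an unadjusted p under 0.05, depending on the set. Few genes of any kind were called by edgeR. The share called among all genes tested was 0% in all cells and in 9 of the sets, 0.0679% in macrophages, 0.0171% in perichondrial cells and 0.00878% in the cluster led by Grem1, Lgr6 and Nos2.

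With 2 pups against 3, values of a gene that does not differ often fail to overlap, and this was the background against which the members were read. Mutant and WT pups did not overlap for 22.5% of all genes tested in all cells, where this held for 2 of 10 members. The share was 26.2% in articular chondrocytes (4 of 10 members), 22.2% in macrophages (1 of 9), 25.5% in perichondrial cells (3 of 10), 18.4% in proliferating and prehypertrophic chondrocytes (1 of 10) and 25.0% in resting chondrocytes (4 of 10). In synovial and connective tissue fibroblasts it was 21.9% (3 of 10 members) and in tendon and ligament cells 21.6% (2 of 10). In the unnamed clusters it was 20.7% for the one led by Grem1 (3 of 10), 20.8% for Mt2 (4 of 10), 17.8% for Notum (1 of 10), 27.6% for Ostn, Aspn and Alpl (5 of 10) and 22.4% for Top2a (4 of 10). In the 12 sets together, mutant pups lay above WT pups in 22 and below them in 13 of the 119 member tests. Of the 22, 10 were of Tgfb2 and 6 of Tgfbr2, and of the 13, 6 were of Tgfbi, in sets that share the same pups. Over all genes, 1242 lay above and 1646 below of 15677 in proliferating and prehypertrophic chondrocytes. In the cluster led by Ostn, Aspn and Alpl, 1635 lay above and 1623 below of 11816. The median log2 fold change of the members was 0.12 in all cells, against -0.017 for all genes, and lay between -0.040 and 0.19 in the 12 sets.

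Tgfb2 and Tgfbr2 were the members whose estimates had 1 direction in 12 of 12 sets. In all cells, Tgfb2 was at 202 and 193 CPM in the WT pups and at 269, 296 and 251 CPM in the mutant pups. Each mutant pup was above both WT pups, with a log2 fold change of 0.46 ± 0.10 (SE), an unadjusted p of 0.0038 and an adjusted p of 0.841 by edgeR. DESeq2 called this difference as 1 of 48 genes in all cells, where edgeR called 0. Its estimate was 0.48 ± 0.12 (SE), with an adjusted p of 0.0324. The edgeR estimate of Tgfb2 was above 0 in 12 of 12 sets, from 0.19 to 0.71, and the pups did not overlap in 10 of them. None of the 12 passed the adjustment (adjusted p from 0.353 to 0.999, edgeR). The 12 sets come from the same 5 pups, so they are not 12 independent observations.

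The Tgfb2 difference was largest in the unnamed cluster led by Grem1, Lgr6 and Nos2, with 174 and 179 CPM in WT and 301, 305 and 260 CPM in mutant pups (log2 0.71 ± 0.12 SE, adjusted p = 0.357, edgeR). In this cluster DESeq2 called it with an adjusted p of 0.0032, as 1 of 3 genes called there. With edgeR it was called when mutant pup 5 was left out (adjusted p = 0.0107). Without pup 5, the WT pups are of one sex and the mutant pups of the other, so that fit cannot tell genotype from sex. Over all genes it called 17 in this cluster, against 1 with all pups. In the cluster led by Ostn, Aspn and Alpl, Tgfb2 was at 285 and 361 against 523, 484 and 431 CPM (0.57 ± 0.13 SE, adjusted p = 0.353, edgeR). Here too the genotypes did not overlap. Without the filter on low counts, edgeR called Tgfb2 in this cluster, in the Grem1 cluster and in articular chondrocytes. Over all genes it then called 167, 25 and 142 there, against 0, 1 and 0 with the filter. In resting chondrocytes the values were 159 and 129 against 167, 233 and 212 CPM (0.51 ± 0.16 SE, adjusted p = 0.664, edgeR). In articular chondrocytes they were 189 and 181 against 212, 292 and 266 CPM (0.47 ± 0.13 SE, adjusted p = 0.598, edgeR). Tendon and ligament cells (0.39 ± 0.11 SE), perichondrial cells (0.37 ± 0.12 SE), synovial and connective tissue fibroblasts (0.34 ± 0.14 SE) and the clusters led by Mt2 (0.38 ± 0.13 SE) and Top2a (0.33 ± 0.13 SE) had smaller estimates, each with an unadjusted p under 0.05 and an adjusted p from 0.451 to 0.991 (edgeR). A sex term sets both WT pups and pup 5 apart from pups 3 and 4, so the genotype estimate then rests on mutant pup 5 against the WT pups. That estimate was above 0 in 12 of 13 comparisons, with a lowest value of -0.018. It cannot tell sex from genotype in pups 3 and 4. Depth differed between the genotypes as given above, and its part in the result was not tested.

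**Figure D4:**
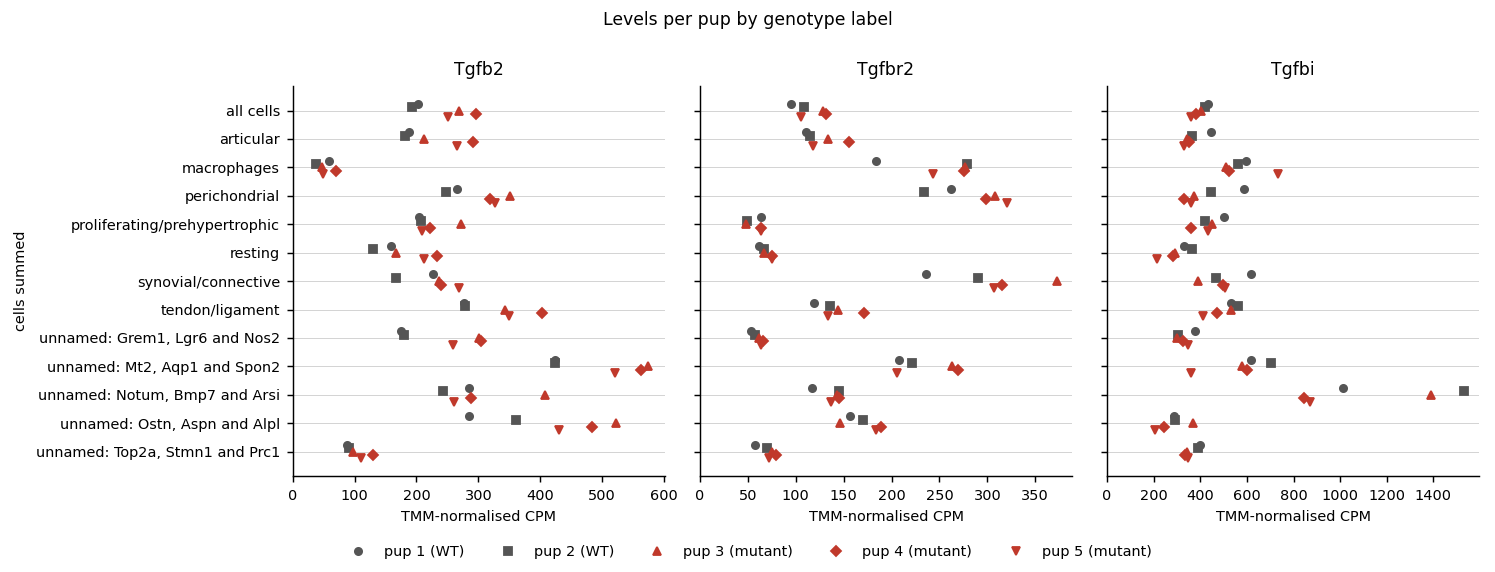
Levels of Tgfb2, Tgfbr2 and Tgfbi (horizontal axes, CPM after TMM) in all cells and the 12 tested sets, with 1 point per pup, grey for WT and red for mutant. Tgfb2 in all cells lies at 193 and 202 CPM in the WT pups and at 251 to 296 CPM in the mutant pups.

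Tgfbr2 estimates were above 0 in these 12 sets, by 0.06 to 0.33 on the log2 scale, with no overlap in 6. In perichondrial cells it was at 262 and 234 CPM in WT and 308, 299 and 320 CPM in mutant pups (0.32 ± 0.12 SE, adjusted p = 0.574, edgeR). In synovial and connective tissue fibroblasts it was at 236 and 291 against 372, 315 and 307 CPM (0.33 ± 0.13 SE, adjusted p = 0.9499, edgeR). Neither difference passed the adjustment.

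Tgfbi went the other way in 11 of 12 sets, with no overlap in 6. In perichondrial cells it was at 586 and 445 CPM in WT and 375, 328 and 362 CPM in mutant pups, a log2 fold change of -0.54 ± 0.14 (SE, adjusted p = 0.350, edgeR). In resting chondrocytes it was at 328 and 365 against 293, 282 and 215 CPM (-0.40 ± 0.14 SE, adjusted p = 0.676, edgeR), and in articular chondrocytes at 445 and 365 against 344, 350 and 329 CPM (-0.25 ± 0.11 SE, adjusted p = 0.605, edgeR). Although the gene is named for its induction by TGF-beta, its estimates and those of Tgfb2 had opposite signs in 11 of 12 sets, and none of them passed the adjustment with edgeR.

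The genotypes also filled the clusters of a class unequally, and cluster levels of these genes differ. In perichondrial cells, a cluster led by Igfbp3 with little Tgfbi (115 CPM) held 21.9% and 10.3% of the cells in WT pups and 32.1%, 36.6% and 49.1% in mutant pups. With equal weight for its 2 clusters, Tgfbi in that class was at 451 and 326 against 312, 277 and 379 CPM, with overlap and a log2 difference of -0.27. In resting chondrocytes, a cluster led by Arc with much Tgfbi (741 CPM) and little Tgfb2 (103 CPM) held 10.2% and 18.4% of the cells in WT pups and 5.38%, 2.36% and 3.96% in mutant pups. With equal weight for the 7 clusters of at least 20 cells in every pup, Tgfbi was at 372 and 396 against 361, 323 and 281 CPM (-0.26), without overlap, and lower in mutant pups in 7 of 7 clusters. Tgfb2 was then at 173 and 134 against 159, 227 and 240 CPM (0.44), with overlap, and higher in 6 of 7 clusters. In perichondrial cells Tgfb2 with equal weight was at 261 and 270 against 357, 300.0 and 322 CPM (0.30), without overlap. In articular chondrocytes, a cluster led by Notum (254 CPM of Tgfb2) held 20.6% and 23.6% of the cells in WT pups and 24.6%, 35.0% and 36.3% in mutant pups. With equal weight for the 5 clusters, Tgfb2 was at 210.9 and 211.0 against 236, 285 and 239 CPM (0.26 in place of 0.47), without overlap, and higher in 4 of 5 clusters. The CPM in this paragraph are without TMM, and these values are descriptions with no test.

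Tgfb3 in proliferating and prehypertrophic chondrocytes did not separate the genotypes. It was at 11.3 and 14.9 CPM in the WT pups and at 14.5, 10.3 and 11.99 CPM in the mutant pups. The values overlapped, with a log2 fold change of -0.09 ± 0.19 (SE, adjusted p = 0.999, edgeR), and leaving out single pups moved the estimate from -0.27 to 0.13. In articular chondrocytes Tgfb3 was at 73.3 and 77.2 against 68.2, 61.1 and 63.4 CPM (-0.23 ± 0.09 SE, adjusted p = 0.600, edgeR), without overlap. With equal weight for the 5 clusters it was at 90.2 and 97.6 against 77.0, 67.0 and 72.8 CPM (-0.37), without overlap and with no test.

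The other members had 0 to 2 sets each with an unadjusted p under 0.05. Tgfbr1 in macrophages was at 101 and 97.2 CPM in WT and 127, 148 and 177 CPM in mutant pups (0.60 ± 0.18 SE, adjusted p = 0.504, edgeR). Tgfb1 was lower in resting chondrocytes of mutant pups, at 9.09 and 10.6 against 8.39, 6.80 and 7.47 CPM (-0.38 ± 0.14 SE, adjusted p = 0.676, edgeR), and higher in the cluster led by Ostn, Aspn and Alpl, at 7.55 and 6.59 against 11.2, 9.45 and 15.3 CPM (0.73 ± 0.25 SE, adjusted p = 0.427, edgeR). In that cluster Ltbp1 was at 219 and 237 against 175, 200 and 194 CPM (-0.27 ± 0.12 SE, adjusted p = 0.509, edgeR). Ltbp2 was at 31.5 and 16.7 against 12.01, 13.6 and 17.5 CPM in synovial and connective tissue fibroblasts (-0.73 ± 0.30 SE, adjusted p = 0.9499, edgeR), with overlap, and at 18.3 and 14.9 against 12.05, 9.90 and 14.5 CPM in the cluster led by Grem1 (-0.43 ± 0.20 SE, adjusted p = 0.940, edgeR). Tgfbr3 and Ltbp3 had no set with an unadjusted p under 0.05.

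**Figure D5:**
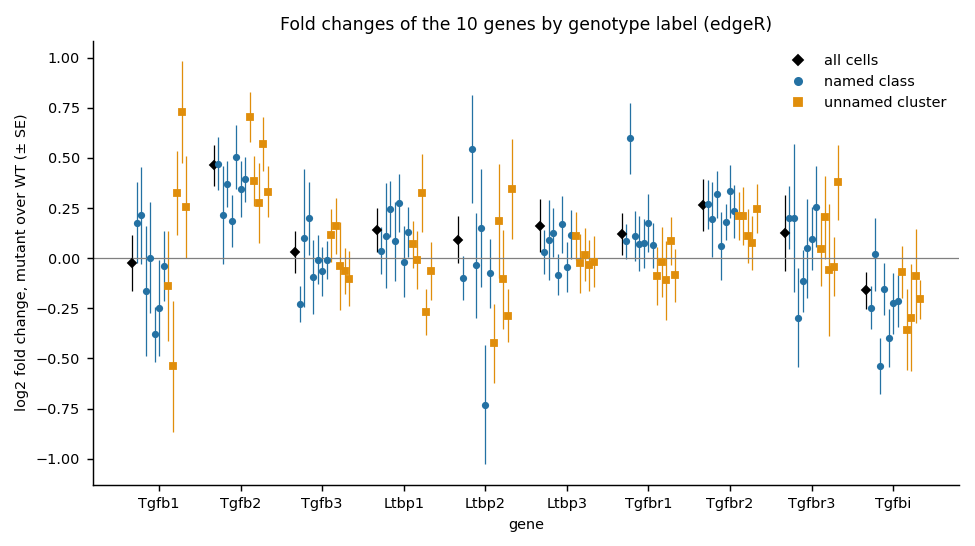
Log2 fold change (mutant over WT) of the 10 genes in all cells (black), 7 named classes (blue) and 5 unnamed clusters (orange), with bars for the SE. The Tgfb2 and Tgfbr2 points lie above 0 in each of the 12 sets, Tgfbi lies below 0 in 11 of them, and no value passed an adjusted p of 0.05 with edgeR.

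In the pathway lists, 0 of 58 genes passed in all cells (8 with an unadjusted p under 0.05, edgeR), where 44 estimates were above 0 and 14 below, with a median of 0.15. The estimates above 0 numbered 16 of 19 in the latency and activation list, 5 of 10 among the binding proteins, 13 of 16 among the Smads and regulators and 12 of 16 among the response genes. Over all genes, 46.6% of the estimates were above 0. In the 12 sets, 1 of 668 tests passed, and 81 had an unadjusted p under 0.05, against the 2.95% to 9.11% of all genes given above. The gene that passed was Ccn2, a connective tissue growth factor gene and known TGF-beta target, which rose in macrophages from 65.4 and 69.4 CPM in WT to 133, 169 and 185 CPM in mutant pups (1.26 ± 0.18 SE, adjusted p = 0.0268, edgeR). Ccn2 is also a chondrocyte gene, at 1395 CPM in hypertrophic cells. Without TMM, Ccn2 in proliferating and prehypertrophic chondrocytes was at 1243 and 980 CPM in WT and 1543, 1355 and 1312 CPM in mutant pups. These values did not overlap. In resting chondrocytes it was at 727 and 527 against 478, 831 and 714 CPM, with overlap. In macrophages, the summed level of 9 resting chondrocyte markers was 13453 and 10042 CPM in WT and 7411, 14352 and 14043 CPM in mutant pups. These sums, also without TMM, overlapped between the genotypes, and none of the 9 markers was at 0. Col2a1 gave 11319 of the 13453 CPM in pup 1. The part of free chondrocyte RNA in the Ccn2 difference was not tested.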

How the data were processed

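The authors captured the cells on the BD Rhapsody HT Express system and deposited raw UMI counts as 1 gene-by-barcode matrix per library, and the submitters' processing notes name the mm10 build. Barcodes were assigned and transcripts counted by the authors with a cloud-hosted commercial pipeline, whose version is not given in the sources used here. Cells with 200 to 6000 genes and at most 10% mitochondrial UMIs were kept, which are the study's own limits. Pearson residuals (theta 100) within each pup over 3000 genes, without the members, the pathway lists, mitochondrial, Xist and Y-linked genes, gave 50 principal components. Leiden clustering (leidenalg 0.10.2, igraph 0.11.9, scikit-learn 1.9.0, resolution 1.5) used 20 neighbours. Clusters were named by marker scores whose limits were set after the clusters were seen. No doublet caller was run, and an alternative left out the deepest 5% of cells. Levels used classes with at least 20 cells in every pup.

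Counts were summed per pup and class and tested in R 4.3.3 with edgeR 4.0.16 (filterByExpr, TMM, robust quasi-likelihood fit, adjusted p 0.05), checked on simulated counts. DESeq2 1.42.0 was an alternative. Sums held 116544529 to 173680933 UMIs per pup. Cells are not replicates, and p-values set the genotype difference against the spread between pups. The members and lists were chosen with earlier results of these data known. All 10 members are named, with statistics for Tgfb3 in proliferating and prehypertrophic chondrocytes, for members with an unadjusted p under 0.05 and for pathway genes past the threshold. Promoters are from RefSeq (GRCm38.p6), gene positions from GENCODE M21.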

Additional observations from a re-analysis of the deposited data

Results flagged for a closer look

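For 3 members, every mutant pup moved one way from the WT pups in one set of cells and the opposite way in another, and the difference between the sets was not tested. Tgfb1 had log2 fold changes (mutant over WT) of -0.38 in resting chondrocytes, -0.25 in synovial and connective tissue fibroblasts and -0.54 in the cluster led by Mt2, Aqp1 and Spon2, against 0.32 in the cluster led by Notum, Bmp7 and Arsi and 0.73 in that led by Ostn, Aspn and Alpl. Tgfb3 had -0.23 in articular chondrocytes and 0.16 in the Mt2 cluster. Ltbp2 had -0.43 in the cluster led by Grem1, Lgr6 and Nos2 and -0.29 in the Ostn cluster, against 0.34 in the cluster led by Top2a. None of these values passed the adjustment. With equal weight for the clusters of a class, Tgfb1 overlapped in resting chondrocytes (-0.17) and in synovial and connective tissue fibroblasts (-0.12). Tgfb3 in articular chondrocytes did not overlap (-0.37). Values of 2 and 3 pups fail to overlap by chance in many genes, as the background shares in the report show.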

How the results depend on the processing

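The number of members called was 1 in place of 0 with DESeq2 in all cells and in the Grem1 cluster, and without the filter on low counts in articular chondrocytes, perichondrial cells and the Grem1 and Ostn clusters. It ranged from 0 to 1 over single pups left out in the Grem1 cluster, with the 1 call without mutant pup 5. Without that pup, the WT pups are of one sex and the mutant pups of the other. The called gene was Tgfb2 except in perichondrial cells, where it was Tgfbi. Tgfb2 was above 0 in each comparison under each alternative apart from sex as a term (lowest -0.018) and the fit without WT pup 2 (lowest -0.087). Tgfbr2 was below 0 in 2 of 13 comparisons without WT pup 1 and in 1 of 13 with sex as a term or without WT pup 2, mutant pup 4 or mutant pup 5. Tgfbi, above 0 in 1 of 13 comparisons, was above 0 in 2 of 13 with sex as a term, without WT pup 1 and without the deepest cells, in 2 of 12 with the members kept among the features and in 2 of 10 with another seed. With equal weight for the clusters of a class, an alternative chosen after seeing the data, 0 of 15 fold changes with statistics changed sign. The calls over all genes also depended on the tool, with 0 in all cells by edgeR and 48 by DESeq2, and with 2 in perichondrial cells against 251 without the filter.

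The median log2 fold change of the members moved with sex as a term to 0.0073 in all cells, -0.015 in articular chondrocytes, 0.070 in macrophages and 0.014 in resting chondrocytes. With the members kept among the clustering features it was 0.13 in articular chondrocytes, -0.14 in the Mt2 cluster and 0.12 in the Ostn cluster. Clustering at resolution 2.5 gave 0.048 in resting chondrocytes and 0.094 in the Ostn cluster, resolution 0.8 gave 0.049 in the Ostn cluster, and a mitochondrial limit of 20% gave 0.096 there. Over single pups left out, it ranged from 0.0048 to 0.11 in articular chondrocytes, 0.047 to 0.14 in resting chondrocytes, -0.045 to 0.049 in synovial fibroblasts, 0.029 to 0.15 in the Grem1 cluster, -0.024 to 0.12 in the Mt2 cluster, -0.090 to 0.15 in the Notum cluster, -0.055 to 0.044 in the Ostn cluster and 0.029 to 0.19 in the Top2a cluster.

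Tgfb3 in proliferating and prehypertrophic chondrocytes turned from -0.09 to 0.16 without the upper limit on genes per cell, and ranged from -0.27 to 0.13 over single pups left out. Ltbp1 in the Ostn cluster was 0.057 with the members kept among the features. At resolution 0.8, where no perichondrial class was named, 6 members kept their highest class. The causes were not tested. Where a reclustering named no matching class or cluster, it gives no value. No paired analysis was possible because the pups of both genotypes share no replicate numbers. With 2 WT pups, of which each is of the sex of mutant pup 5, genotype and sex cannot be told apart in pups 3 and 4. Estimates with sex as a term therefore rest on mutant pup 5 against the WT pups. Levels in classes with few UMIs are limited by counting error.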
